A study of Mus musculus with 2 samples.

Results

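Tubulin isotypes are the closely related α- and β-tubulin proteins that pair into the building block of microtubules, and each is made from a gene of its own. The 9 genes described here were chosen by symbol: the α-tubulins Tuba1a and Tuba1b, the β-tubulins Tubb2a, Tubb2b, Tubb3, Tubb4b, Tubb5 and Tubb6, and Tubg1, which encodes γ-tubulin. All 9 were found among the 32285 genes of the count tables. Forebrain cells of mouse embryos at E18.5 were profiled in 2 droplet libraries, 1 labelled Cyfip2 knockout and 1 labelled WT, each made from forebrains of 2 embryos pooled before dissociation. The protein made from Cyfip2 belongs to the WAVE complex, a driver of branched actin assembly. Neither the allele nor the strain, zygosity or sex of the embryos could be taken from the labels. After cell calling and removal of scored doublets, 11533 knockout-labelled and 8426 WT cells were kept, with medians of 7802 and 9567 UMIs (unique molecular identifiers, each standing for 1 captured RNA molecule).

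In growing neurons, microtubules carry cargo along axons and pull the nucleus forward during migration, and in dividing cells they form the spindle. Tuba1a and Tubb2b are the tubulins most often mutated in human cortical malformations of the lissencephaly and polymicrogyria type, and Tubb3 is the isotype used as a marker of newly born neurons. Tuba1b and Tubb4b are broadly expressed, Tubb5 is abundant in progenitors and neurons alike, and Tubb6 is known mainly outside the nervous system. γ-Tubulin does not enter the microtubule wall but forms the ring from which microtubules start at centrosomes.

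Each library is a single sample, so no test between them was possible. Levels are CPM, the UMIs of a gene scaled to 1e6 UMIs of all cells of a class, and differences are log2 ratios with exact 95% Poisson intervals, which cover counting error only and neither embryo nor library variation. CPM of a gene is compared between cell classes and libraries and not with that of another gene. Genes count as measured where either group compared reached 20 CPM and both together held 100 UMIs or more, and as called at a ratio of at least 1.5-fold (0.58 on the log2 scale) with an interval that leaves out 0. Cyfip2 itself had 84.2 CPM in the knockout-labelled library and 85.0 CPM in the WT library over all cells. Which part of that gene is altered is not given, so these UMIs do not check the genotype, and the label is used as a label throughout. By class it was higher in the knockout-labelled library in progenitors (63.4 CPM, against 36.4 CPM in WT), vascular cells (119 against 17.1 CPM, at 150 and 5 UMIs) and microglia (45.7 against 2.55 CPM, at 91 and 3 UMIs), and lower in excitatory (92.3 against 104 CPM) and GABAergic neurons (78.6 against 86.9 CPM). The libraries shared 32 cell barcodes, against 17.2 for independent draws. Cells fell into 29 clusters, formed without any tubulin or other microtubule gene and named from marker genes. The names below stand for neuron-like, progenitor-like and other marker-like clusters. The class named microglia joins cluster 28 with cluster 27, whose leading genes include Pf4, Mrc1 and Lyve1, genes of border-associated macrophages. Cluster 27 held 71 of 149 knockout-labelled and 24 of 76 WT cells of the class. In excitatory neurons the 8 excitatory markers summed to 3737 CPM in the knockout-labelled library and 3778 CPM in WT, while the same markers summed to 106 and 67.6 CPM in GABAergic neurons.

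Both α-tubulins lie near each other on one chromosome, and Tubb2a and Tubb2b on another. In mm10 coordinates, Tuba1a lies at chr15:98949837-98953703 and Tuba1b at chr15:98931425-98934565, both on the minus strand. Tubb2a lies at chr13:34074274-34078007 and Tubb2b at chr13:34126748-34130466, both on the minus strand. Tubb3 lies at chr8:123411424-123422015 on the plus strand, and Tubb4b at chr2:25222160-25224702 and Tubb5 at chr17:35833921-35838306 on the minus strand. Tubg1 lies at chr11:101119938-101126419 on the plus strand. The α- and β-tubulin genes named here have 4 exons each, and Tubg1 has 11.

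The first codons of α- and β-tubulin are shown because the protein they encode is read by TTC5 as it leaves the ribosome, the step by which cells destroy tubulin mRNA when free tubulin is in excess. The first 30 coding bases follow, from the GENCODE M21 transcripts of mm10, with the first 4 codons in capitals.
Tuba1a: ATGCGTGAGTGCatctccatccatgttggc
Tuba1b: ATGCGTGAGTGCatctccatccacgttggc
Tubb2a: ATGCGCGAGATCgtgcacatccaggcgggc
Tubb2b: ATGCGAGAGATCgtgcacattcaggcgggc
Tubb3: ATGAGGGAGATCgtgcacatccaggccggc
Tubb4b: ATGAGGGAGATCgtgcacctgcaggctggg
Tubb5: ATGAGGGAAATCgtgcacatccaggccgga
Tubg1: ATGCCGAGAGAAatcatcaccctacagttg
Tuba1a and Tuba1b share the same first 12 bases, as do Tubb3 and Tubb4b. Tubg1, outside this feedback, differs from every other member shown at 19 or more of 30 bases.

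The last 60 coding bases of the β-tubulins and of Tubg1 are shown because in β-tubulin they encode the acidic tail, which is where isotypes differ most and where glutamates are added in neurons. The stop codon is in capitals.
Tubb2a: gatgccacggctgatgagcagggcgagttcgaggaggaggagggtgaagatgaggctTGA
Tubb2b: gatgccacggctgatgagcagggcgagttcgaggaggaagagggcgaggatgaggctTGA
Tubb3: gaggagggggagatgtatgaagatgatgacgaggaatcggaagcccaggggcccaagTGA
Tubb4b: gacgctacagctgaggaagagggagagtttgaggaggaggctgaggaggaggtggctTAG
Tubb5: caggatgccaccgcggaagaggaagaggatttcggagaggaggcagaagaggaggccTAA
Tubg1: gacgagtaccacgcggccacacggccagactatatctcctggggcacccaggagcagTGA
Tubb2a and Tubb2b differ at 3 of these 60 bases, whereas Tubb3 differs from Tubb2a at 35 and from Tubb4b at 36. Over the whole coding sequence Tuba1a and Tuba1b are identical at 98.3% of positions, with a longest shared run of 281 bases, and Tubb2a and Tubb2b at 96.5%, with a shared run of 551 bases. Their 3′ untranslated regions share no run longer than 6 bases in the α pair and 10 bases in the β pair. Where on the transcripts the reads lie and how reads that match both copies were counted is stated by no label or header, so a split of UMIs within these pairs is uncertain. Tuba1b and Tubb4b also overlap the antisense genes Gm41396 (241 bases) and Fam166a (121 bases), and whether strand was used in counting is not given.

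Together the 9 genes took 1.94% of all UMIs in the knockout-labelled library and 2.03% in WT. The share was largest in deep-layer neurons, with 2.98% in the knockout-labelled library and 3.08% in WT, and lowest in microglia, with 0.238% and 0.209%. By cluster, deep-layer cluster 8 gave 3.18% and 3.31%. Deep-layer cluster 17 gave 2.17% and 2.15%, below upper-layer neurons with 2.34% and 2.70%. Deep-layer neurons were also the deepest of the large neuronal classes, and within cells of 5000 to 15000 UMIs, a range chosen after seeing the data, the share was largest in caudal or lateral eminence interneurons, with 2.46% in the knockout-labelled library and 2.63% in WT, against 2.31% and 2.21% in deep-layer neurons. Radial glia, the stem cells of the cortex, gave 0.776% in the knockout-labelled library and 0.787% in WT. The summed tubulin share thus had the same order in both libraries from microglia through radial glia to deep-layer neurons.

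**Figure D1:**
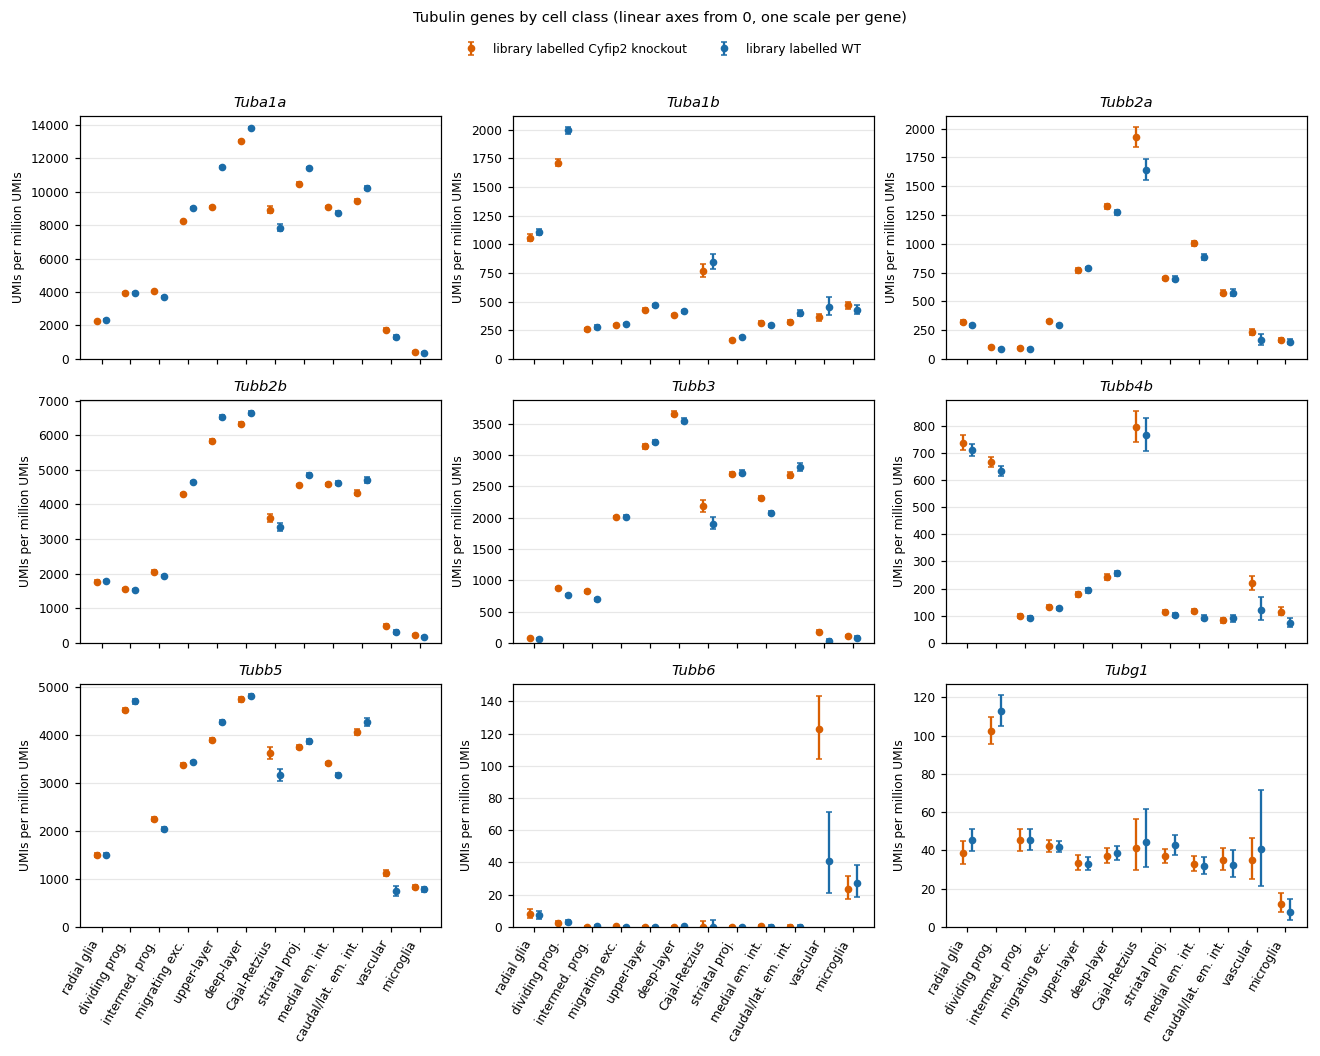
Level of each tubulin gene (CPM, linear axis from 0) in 12 cell classes, for the library labelled Cyfip2 knockout (orange, left) and the library labelled WT (blue, right); bars are exact 95% Poisson intervals. Tuba1a, Tubb2b and Tubb3 are high in neurons, Tuba1b in dividing progenitors (1711 and 1992 CPM), Tubb4b in radial glia, dividing progenitors and Cajal-Retzius cells, and Tubb6 in vascular cells.

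The first comparison asks which isotypes differ between neurons and the progenitors they come from, in each library on its own. Excitatory and GABAergic neurons together had more Tubb2a, Tubb3, Tubb2b and Tuba1a than progenitors, and less Tuba1b, Tubb4b and Tubg1. Of the 8 measured members, 4 were higher in neurons in both libraries, against 21.8% of all measured genes, and 3 were lower in both, against 19.2%. Tubb5 alone among the measured members was on neither side.

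Tubb2a showed the largest neuronal excess. It had 728 CPM in neurons and 145 CPM in progenitors of the knockout-labelled library (log2 ratio 2.32, 95% interval 2.27 to 2.38). In WT it had 704 CPM in neurons and 138 CPM in progenitors (2.35, 2.29 to 2.40). Tubb3, the β-tubulin of newly born neurons, had 2626 CPM in neurons and 704 CPM in progenitors of the knockout-labelled library (1.90). The same gene had 2648 CPM in neurons and 562 CPM in progenitors of WT (2.24), so the contrast was wider in WT. Tuba1a, the main α-tubulin of migrating neurons, had 9670 CPM in neurons and 3602 CPM in progenitors of the knockout-labelled library (1.42). In WT its levels were 10506 CPM in neurons and 3430 CPM in progenitors (1.61). Tubb2b gave a similar contrast, with a log2 ratio of 1.55 in the knockout-labelled library and 1.68 in WT.

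Tuba1b and Tubb4b ran the other way by nearly the same factor. Tuba1b had 339 CPM in neurons and 1071 CPM in progenitors of the knockout-labelled library (−1.66), and 371 and 1159 CPM in those of WT (−1.64). Tubb4b had 147 CPM in neurons and 459 CPM in progenitors of the knockout-labelled library (−1.64), and 155 and 456 CPM in those of WT (−1.56). Tubg1, whose product seeds the spindle, had 36.7 CPM in neurons and 69.2 CPM in progenitors of the knockout-labelled library (−0.92), and 36.7 and 70.2 CPM in those of WT (−0.94). Tubb5 was within 1.5-fold, at 3797 CPM in neurons and 3023 CPM in progenitors of the knockout-labelled library (0.33) and 3889 and 2832 CPM in those of WT (0.46). The α-tubulin pair thus fell on opposite sides of this contrast in both libraries.

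**Figure D2:**
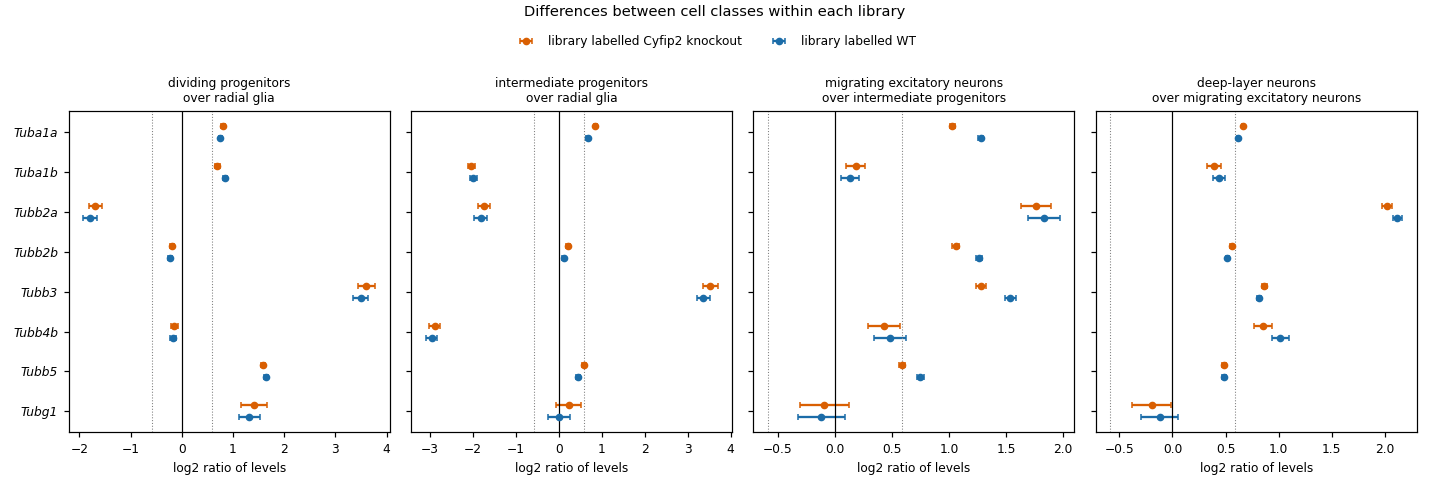
Log2 ratio of the level of each measured tubulin gene between 2 cell classes, in the library labelled Cyfip2 knockout (orange, upper) and WT (blue, lower), with exact 95% Poisson intervals; dotted lines mark 1.5-fold, and the horizontal scales differ between panels. Tubb3 is over 10-fold higher in dividing progenitors as a class and in intermediate progenitors than in radial glia. Its level in radial glia is not above that of microglia. Tubb4b is lower in intermediate progenitors, and Tubb2a is higher at each of the last steps.

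The progenitors themselves were not uniform. Dividing progenitors, set against radial glia, had 5 of 8 measured members called higher in both libraries, where 16.2% of measured genes were called higher in the knockout-labelled library and 15% in WT. These were Tuba1a, Tuba1b, Tubb3, Tubb5 and Tubg1. Tubb5, the β-tubulin shared by cycling cells and neurons, had 4519 CPM in dividing progenitors and 1504 CPM in radial glia of the knockout-labelled library (log2 ratio 1.59), and 4708 and 1505 CPM in those of WT (1.65). Tubb3 had 877 CPM in dividing progenitors and 72.0 CPM in radial glia of the knockout-labelled library (3.61), and 763 and 67.7 CPM in those of WT (3.49). The dividing clusters differed, with 1045 and 939 CPM of Tubb3 in cluster 15 and 424 and 422 CPM in cluster 26. The Tubb3 level in radial glia is one that microglia also reach. Should part of that level be background, these ratios, and those of Tubb3 over radial glia given next, would be lower bounds. This was not tested. Tubg1 had 103 CPM in dividing progenitors and 38.7 CPM in radial glia of the knockout-labelled library (1.41), and 113 and 45.2 CPM in those of WT (1.32). Dividing progenitors were the class with the highest Tubg1 and Tuba1b in both libraries. Only Tubb2a was called lower, with 100 CPM in dividing progenitors and 324 CPM in radial glia of the knockout-labelled library (−1.69) and 85.0 and 292 CPM in those of WT (−1.78). Genes called lower made up 23.8% of measured genes in the knockout-labelled library and 24.3% in WT. Tubb4b and Tubb2b were within 1.5-fold in both, although in cells of 5000 to 15000 UMIs, a range chosen after seeing the data, Tubb4b reached 0.65 in the knockout-labelled library.

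Intermediate progenitors are the Eomes-positive cells that give rise to cortical excitatory neurons. Set against radial glia they had less Tuba1b, Tubb2a and Tubb4b and more Tuba1a and Tubb3, in both libraries. The genes called lower were 3 of 8, against 23.6% of measured genes in the knockout-labelled library and 22.8% in WT, and those called higher 2 of 8, against 15.8% and 14%. Tubb4b had 99.4 CPM in intermediate progenitors and 737 CPM in radial glia of the knockout-labelled library (−2.89, −3.03 to −2.76), and 90.9 and 711 CPM in those of WT (−2.97, −3.10 to −2.83). Tuba1b had 257 CPM in intermediate progenitors and 1058 CPM in radial glia of the knockout-labelled library (−2.04), and 278 and 1108 CPM in those of WT (−1.99). Tubb3 had 827 CPM in intermediate progenitors and 72.0 CPM in radial glia of the knockout-labelled library (3.52, 3.35 to 3.70). In WT it had 695 CPM in intermediate progenitors and 67.7 CPM in radial glia (3.36, 3.21 to 3.51). Within 5000 to 15000 UMIs Tubb5 was also past 1.5-fold, at 1.28 in the knockout-labelled library and 1.12 in WT.

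By CPM, Tubb3 in radial glia was not above microglia. Microglia, which arise outside the neural lineage, had 104 CPM of Tubb3 in the knockout-labelled library and 84.9 CPM in WT. With every cell thinned to 1000 UMIs, 8.90% of knockout-labelled and 6.67% of WT radial glia carried a Tubb3 UMI, against 12.8% and 5.26% of microglia, 50.2% and 46.1% of intermediate progenitors, and 84.8% and 84.3% of excitatory neurons. Without thinning the shares were 53.1% and 46.7% of radial glia and 55.7% and 31.6% of microglia, at median depths of 14457 and 15834 UMIs and of 13370 and 15236 UMIs. The exact binomial intervals of the thinned shares overlapped between radial glia and microglia in both libraries. Overlap does not show where the UMIs come from, and whether the radial glia value is background was not tested.

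Migrating excitatory neurons, set against intermediate progenitors, had 5 of 8 measured members called higher in both libraries, against 19.4% of measured genes in the knockout-labelled library and 19.6% in WT. These were Tuba1a, Tubb2a, Tubb2b, Tubb3 and Tubb5. Tubb2a had 327 CPM in migrating neurons and 96.4 CPM in intermediate progenitors of the knockout-labelled library (1.76), and 294 and 82.5 CPM in those of WT (1.83). Tuba1a had 8227 CPM in migrating neurons and 4033 CPM in intermediate progenitors of the knockout-labelled library (1.03), and 9023 and 3720 CPM in those of WT (1.28). Tubb3 gave log2 ratios of 1.28 in the knockout-labelled library and 1.54 in WT. For each of these genes the log2 ratio over cells of all depths was numerically larger in WT, which was not tested. Tubb2a had the opposite order within 5000 to 15000 UMIs. It had 304 CPM in migrating neurons and 104 CPM in intermediate progenitors of the knockout-labelled library there, and 254 and 107 CPM in those of WT. In the range of 5000 to 15000 UMIs Tubb5 was within 1.5-fold, at 0.53 in the knockout-labelled library and 0.55 in WT. Migrating cluster 1, with medians of 3566 and 4058 UMIs, had 3850 and 4090 CPM of Tuba1a. Its Tubb5 was 2245 and 2278 CPM, beside 2252 and 2047 CPM in intermediate progenitors. Tuba1a had 10945 and 11724 CPM in migrating cluster 2 and 8182 and 8413 CPM in cluster 10. Tubb2a (184 and 174 CPM), Tubb2b (2626 and 2857 CPM) and Tubb3 (1464 and 1453 CPM) in cluster 1 were above intermediate progenitors.

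Deep-layer neurons, the earlier-born neurons of the cortex, had 4 of 8 members called higher than migrating neurons in both libraries, against 13% of measured genes in the knockout-labelled library and 12.8% in WT. Tubb2a again stood apart in size, with 1327 CPM in deep-layer and 327 CPM in migrating neurons of the knockout-labelled library (2.02), and 1274 and 294 CPM in those of WT (2.12). Tubb4b, low in young neurons, had 242 CPM in deep-layer and 134 CPM in migrating neurons of the knockout-labelled library (0.86), and 257 and 127 CPM in those of WT (1.01). The other 2 called members were Tuba1a and Tubb3. The deep-layer class joins clusters 8 and 17, which differed in these genes. Cluster 8 had 14126 CPM of Tuba1a in the knockout-labelled library and 15063 CPM in WT, and cluster 17 had 8684 and 8680 CPM. Tubb3 had 3950 and 3819 CPM in cluster 8 and 2507 and 2458 CPM in cluster 17. Tubb4b had 255 and 276 CPM in cluster 8 and 192 and 178 CPM in cluster 17. Tubb2a had 1356 and 1295 CPM in cluster 8 and 1211 and 1189 CPM in cluster 17. Median depth was 15098 UMIs per cell in knockout-labelled deep-layer neurons and 17860 in those of WT, but 6295 and 8316 in migrating neurons. Within cells of 5000 to 15000 UMIs, a range chosen after seeing the data, Tubb2a stayed past 1.5-fold (1.95 in the knockout-labelled library and 2.11 in WT). Tuba1a (0.13 and 0.091), Tubb3 (0.46 and 0.43) and Tubb4b (0.57 and 0.40) did not. Upper-layer neurons lay between: Tubb2a had 769 CPM there in the knockout-labelled library and 785 CPM in WT.

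The highest Tubb2a and Tubb4b were in Cajal-Retzius cells, the Reelin-secreting neurons of the cortical surface (52 knockout-labelled and 40 WT cells). Tubb2a had 1925 CPM in these cells and 700 CPM in excitatory neurons of the knockout-labelled library (log2 ratio 1.46), and 1645 and 691 CPM in those of WT (1.25). Tubb4b had 796 CPM in Cajal-Retzius cells and 163 CPM in excitatory neurons of the knockout-labelled library (2.29), and 765 and 172 CPM in those of WT (2.16). Tuba1b was also higher, at 769 CPM in Cajal-Retzius cells and 375 CPM in excitatory neurons of the knockout-labelled library and 846 and 401 CPM in those of WT. These 3 genes were called higher in both libraries, where 27.1% of measured genes were in the knockout-labelled library and 25.8% in WT. Tubb2b had −0.52 in the knockout-labelled library, not called, and −0.73 in WT, called lower, where 19.6% of measured genes in the knockout-labelled library and 17% in WT were called lower. In the range of 5000 to 15000 UMIs its ratio in WT was −0.44. Over cells of all depths, Cajal-Retzius cells therefore joined a neuronal level of Tubb2a to levels of Tubb4b whose interval overlapped that of radial glia. Within 5000 to 15000 UMIs, which left 19 knockout-labelled and 15 WT Cajal-Retzius cells, they had 613 and 572 CPM of Tubb4b. Dividing progenitors had 642 and 556 CPM of it there, and radial glia 408 and 438 CPM. Tubb2a was still highest in Cajal-Retzius cells in that range, at 1435 and 1317 CPM.

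Among GABAergic neurons, Tubb2a was highest in medial eminence interneurons, at 1003 CPM in the knockout-labelled library and 886 CPM in WT. It was lower in striatal projection neurons, at 699 CPM in the knockout-labelled library and 697 CPM in WT, and in caudal or lateral eminence interneurons, at 576 CPM in both. Single clusters did not keep this order. Medial eminence cluster 13, led by Zic4, Sst and Lhx8, had 1242 and 1067 CPM, and medial eminence cluster 7 had 850 and 838 CPM. Caudal or lateral eminence cluster 22 had 921 and 936 CPM, and cluster 6 of the same class 461 and 408 CPM. Tuba1b was lowest of all 12 classes in striatal projection neurons, at 169 CPM in the knockout-labelled library and 189 CPM in WT. Between excitatory and GABAergic neurons as wholes, 0 of 8 measured members were called higher in the knockout-labelled library and 2 in WT, Tubb4b and Tuba1b, where 9.05% and 9.84% of measured genes were. Tuba1b lay at the threshold, at 0.57 in the knockout-labelled library and 0.59 in WT. Tubb4b had 163 CPM in excitatory and 110 CPM in GABAergic neurons of the knockout-labelled library (0.56), and 172 and 96.7 CPM in those of WT (0.83). Within 5000 to 15000 UMIs neither gene reached 1.5-fold, Tubb4b at 0.37 and Tuba1b at 0.39 in WT, while Tubb2a was lower in excitatory than in GABAergic neurons, at −0.62 in the knockout-labelled library and −0.82 in WT.

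The order of the 12 classes with at least 20 cells in each library was resolved to different degrees. Of the 11 neighbouring pairs in that order, 8 were separated by their counting intervals in both libraries for Tubb2a and for Tubb2b, 7 for Tubb3 and for Tubb5, 6 for Tuba1a, 5 for Tuba1b, 4 for Tubb4b, 3 for Tubb6 and 2 for Tubg1. The top class of Tuba1a was deep-layer neurons, at 13033 CPM in the knockout-labelled library and 13803 CPM in WT, and its lowest was microglia, at 430 and 360 CPM. Within 5000 to 15000 UMIs the top class was instead striatal projection neurons, at 11427 CPM in the knockout-labelled library and 12233 CPM in WT, and deep-layer neurons had 9346 and 9208 CPM. Over all cells Tubb2b had the same top and lowest class, with 6329 CPM in deep-layer neurons and 224 CPM in microglia of the knockout-labelled library, and 6646 and 178 CPM in those of WT. In that range of depth its top class differed between the libraries. In the knockout-labelled library it was upper-layer neurons, at 5385 CPM, with deep-layer neurons close by at 5378 CPM. In WT it was caudal or lateral eminence interneurons, at 5549 CPM, followed by upper-layer neurons at 5496 CPM. For Tubg1, dividing progenitors stood above all other classes and microglia lay lowest, at 12.04 CPM in the knockout-labelled library and 7.64 CPM in WT, while neighbouring classes in between were not separated from each other.

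Tubb6, on chromosome 18, was nearly absent from neurons and was highest in vascular and meningeal cells. Neurons held 15 Tubb6 UMIs in the knockout-labelled library and 12 in WT, which is 0.193 and 0.175 CPM. Vascular cells had 123 CPM in the knockout-labelled library (155 UMIs in 78 cells) and 40.9 CPM in WT (12 UMIs in 24 cells). Meningeal cells had 86.6 CPM in the knockout-labelled library (52 UMIs in 32 cells) and 45.1 CPM in WT (5 UMIs in 6 cells). Microglia had 23.6 CPM in the knockout-labelled library and 27.2 CPM in WT, and radial glia 7.89 and 7.13 CPM. No Tubb6 UMI was seen among Cajal-Retzius cells, where 3 counts would be 3.10 CPM in the knockout-labelled library and 3.72 CPM in WT. The classes with the least Tuba1a were thus those with the most Tubb6. Over 24 clusters with at least 50 cells in each library, the correlation of Tubb6 with Tuba1a was −0.85 in the knockout-labelled library and −0.90 in WT, on log2(CPM + 10). These clusters leave out the vascular and meningeal clusters and macrophage-like cluster 27, which had too few WT cells. Only microglial cluster 28 (13.9 and 19.3 CPM) and radial glia had more than 3.59 CPM of Tubb6 among those kept. Most levels thus lay far below the 10 CPM added. Clusters of a library share its depth and free RNA, so the correlation is a description.

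**Figure D3:**
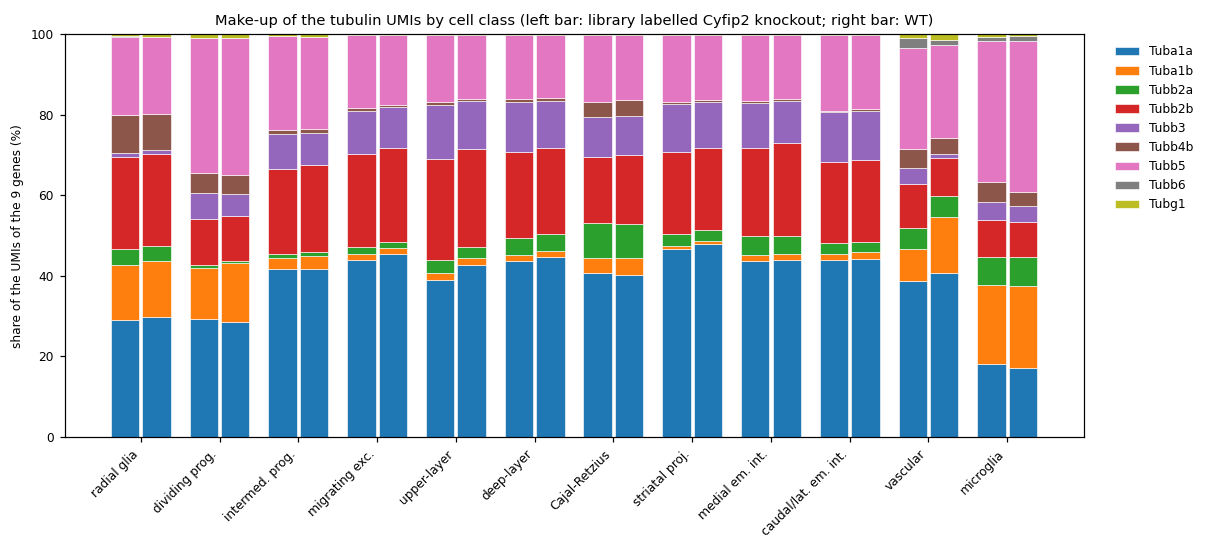
Share of the UMIs of the 9 tubulin genes that each gene takes in 12 cell classes, with the library labelled Cyfip2 knockout as the left and WT as the right bar of each pair. Tuba1b and Tubb5 take larger shares in dividing progenitors than in neurons, and Tubb3 grows from under 1% in radial glia to over 11% in deep-layer neurons.

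The make-up of the tubulin UMIs shifted between classes. Tuba1b took 12.7% of them in dividing progenitors of the knockout-labelled library and 14.5% in those of WT, but 1.52% and 1.57% in neurons. Tubb3 took 0.927% in radial glia of the knockout-labelled library and 0.860% in WT, and 12.3% and 11.5% in deep-layer neurons. Tubb5 took 33.6% in dividing progenitors of the knockout-labelled library and 34.1% in WT, and 17.02% and 16.4% in neurons. Tuba1a varied less among the excitatory and GABAergic classes, between 38.9% in upper-layer and 46.6% in striatal projection neurons of the knockout-labelled library and between 42.6% and 47.8% in those of WT. In Cajal-Retzius cells it took 40.9% in the knockout-labelled library and 40.1% in WT.

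The second comparison asks which tubulin genes differ between the knockout-labelled and the WT library within a cell type. No measured member reached 1.5-fold over all cells, in excitatory neurons, in GABAergic neurons or in progenitors. Tubb6 was below the limits of measurement there, with 3.00 CPM in the knockout-labelled library and 1.32 CPM in WT over all cells (329 and 128 UMIs, log2 ratio 1.19). Among all measured genes, 0.584% were called over all cells, 0.207% in excitatory neurons, 0.613% in GABAergic neurons and 0.467% in progenitors. Because these genes are abundant, intervals left out 0 at small sizes. Over all cells 2 measured members lay above 0 and 5 below, where 17.5% and 32.2% of all measured genes did. In excitatory neurons 0 lay above and 6 below (14.5% and 21.6%), in GABAergic neurons 3 above and 3 below (11.3% and 14.9%), and in progenitors 3 above and 1 below (10.1% and 19.9%).

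**Figure D4:**
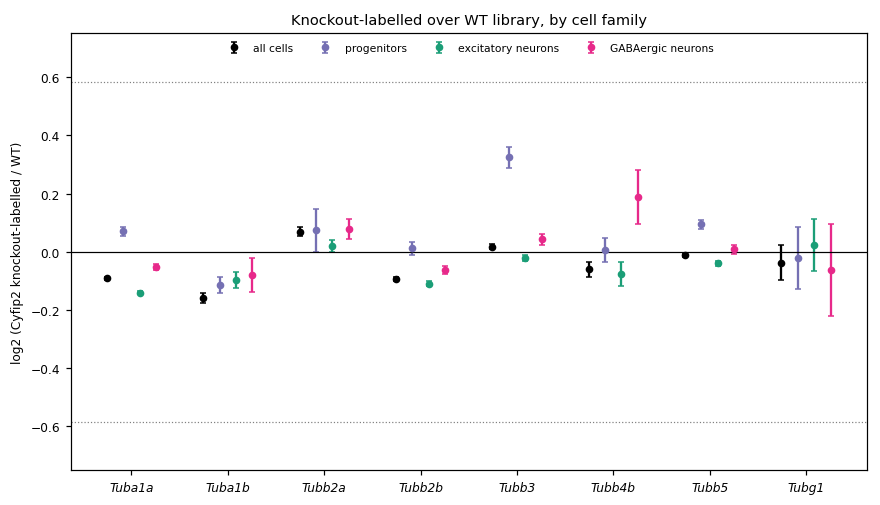
Log2 ratio of the library labelled Cyfip2 knockout over WT for each measured tubulin gene over all cells, in progenitors, in excitatory neurons and in GABAergic neurons, with exact 95% Poisson intervals; dotted lines mark 1.5-fold. All points lie within the dotted lines, and the farthest from 0 is Tubb3 in progenitors at 0.32.

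Tubb3 in progenitors gave the largest ratio of a measured member, with 704 CPM in the knockout-labelled library and 562 CPM in WT (log2 ratio 0.32, 0.29 to 0.36). Progenitors of the knockout-labelled library held 28.1% cells of dividing cluster 15, which had 1045 CPM of Tubb3, and 18.3% radial glia. Those of WT held 20% cells of cluster 15, with 939 CPM of Tubb3, and 26.8% radial glia. With equal weight for each cluster the ratio was 0.12. GABAergic markers in progenitors summed to 1263 CPM in the knockout-labelled library and 952 CPM in WT, and excitatory markers to 565 and 617 CPM. Their part in the Tubb3 ratio was not tested. In excitatory neurons the same gene had 2657 CPM in the knockout-labelled library and 2696 CPM in WT (−0.02).

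Tuba1a was slightly lower in knockout-labelled excitatory neurons, with 9625 CPM against 10608 CPM in WT (−0.14, −0.15 to −0.13). The lowest ratio among the 12 classes was in upper-layer neurons, with 9093 CPM in the knockout-labelled library and 11500 CPM in WT (−0.34, −0.35 to −0.33). Median depth in that class was 11885 UMIs per cell in the knockout-labelled library and 15536 in WT. Within cells of 5000 to 15000 UMIs, a range chosen after seeing the data, upper-layer neurons had 6448 CPM in the knockout-labelled library and 6819 CPM in WT (−0.08), and excitatory neurons 7941 and 7850 CPM (0.02). The direction in excitatory neurons therefore turned within this range of depth, as it did for Tubb3 (0.031), Tubb4b (0.058) and Tubb5 (0.039). Tubb2b, whose levels follow those of Tuba1a over clusters (correlation 0.95 in the knockout-labelled library and 0.96 in WT), had a ratio of −0.11 in excitatory neurons and 0.01 in the same range of depth. Tubb2a had a ratio of 0.02 over all excitatory neurons and 0.24 (0.20 to 0.28) within the range, where it stood at 522 CPM in the knockout-labelled library and 442 CPM in WT.

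Tuba1b was lower in the knockout-labelled library in each of the 3 large families, by a log2 ratio of −0.10 in excitatory neurons, −0.08 in GABAergic neurons and −0.11 in progenitors. In dividing progenitors, where it is highest, it had 1711 CPM in the knockout-labelled library and 1992 CPM in WT (−0.22, −0.25 to −0.19). Both dividing clusters had that direction, with 1685 CPM against 1927 CPM in cluster 15 and 1778 CPM against 2120 CPM in cluster 26. Within 5000 to 15000 UMIs the ratio in dividing progenitors was again −0.22. Free RNA, taken from barcodes under 100 UMIs, also held less Tuba1b in the knockout-labelled library, with 403 CPM against 465 CPM (−0.21). Tubb4b had ratios of 0.19 in GABAergic neurons and −0.08 in excitatory neurons, and Tubg1 had an interval that spanned 0 in all 3 families. Its widest interval among them, in GABAergic neurons, ran from −0.22 to 0.10.

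Across 24 clusters with at least 50 cells in each library, Tubb2a and Tuba1b had most of their ratios on one side of 0. Few or none of their intervals lay on the other side. Tubb2a was higher in the knockout-labelled library in 20 clusters, with 12 intervals above 0 and none below (median 0.08). Of all genes measured over all cells, 2.32% were higher in at least 20 clusters and 1.52% had at least 12 intervals above 0. Tuba1b was lower in 20 clusters, with 13 intervals below 0 and 2 above (median −0.12), where 1.88% of genes were lower in at least 20 and 0.399% had at least 13 intervals below 0. Clusters of a library are not replicates, and intervals are narrower for abundant genes. Tuba1a, with 6 intervals above and 12 below 0, and Tubb2b, with 6 above and 11 below, were more mixed. Tubb3, although higher in the knockout-labelled library in 20 clusters like Tubb2a, had 10 above and 4 below.

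Among these 24 clusters, 1.5-fold was passed for 2 members, Tubb2a and Tubb3. In cluster 14, progenitors without a class name whose leading genes include Gadd45g and Olig2, Tubb2a had 108 CPM in the knockout-labelled library and 44.4 CPM in WT (1.28, 0.96 to 1.61). There 1% of measured genes were called higher. GABAergic markers in that cluster summed to 2444 CPM in the knockout-labelled library and 2361 CPM in WT, progenitor markers to 3623 and 2868 CPM, and choroid plexus or ependymal markers to 57.7 and 23.7 CPM. Their part in the Tubb2a ratio was not tested. In cluster 20, an unnamed cluster led by the choroid plexus gene Ttr with medians of 2390 and 2266 UMIs, Tubb2a (0.76) and Tubb3 (0.73) were higher, where 14.1% of measured genes were. Its choroid plexus or ependymal markers summed to 49551 CPM in the knockout-labelled library and 135040 CPM in WT, GABAergic markers to 459 and 170 CPM, and excitatory markers to 1035 and 785 CPM. Their part in these ratios was not tested. Tubb3 was also higher in microglial cluster 28, with 131 CPM in the knockout-labelled library and 85.4 CPM in WT (0.61), at 113 and 53 UMIs, where 5.88% of measured genes were called higher.

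Vascular cells and microglia, with few cells, also had called members. In vascular cells 5 of 8 measured members were higher in the knockout-labelled library, where 16.5% of measured genes were higher and 14.9% lower. Tubb6 had a log2 ratio of 1.58 (0.74 to 2.57) and Tubb3 had 178 CPM in the knockout-labelled library and 30.7 CPM in WT (2.54, 1.59 to 3.68, at 225 and 9 UMIs). Tubb2b (0.68), Tubb4b (0.84) and Tubb5 (0.59) were the others. Neuronal markers moved with them: the 8 excitatory markers summed to 153 CPM in the knockout-labelled library and 64.8 CPM in WT, with 1 at 0, and the 8 GABAergic markers to 26.1 and 3.41 CPM. Vascular markers summed to 11656 CPM in the knockout-labelled library and 15731 CPM in WT. Meningeal markers, of a class also high in Tubb6, summed to 471 and 1242 CPM, and oligodendrocyte lineage markers to 169 and 539 CPM. The part of these markers in the vascular ratios was not tested. In microglia only Tubb4b was called, with 115 CPM in the knockout-labelled library and 74.8 CPM in WT (0.63, 0.27 to 1.00), against 3.54% of measured genes called higher. It had 78.8 and 34.1 CPM in macrophage-like cluster 27, and 163 and 111 CPM in cluster 28. The part of the mix of these clusters in the class ratio was not tested. Within 5000 to 15000 UMIs, which left 45 knockout-labelled and 17 WT microglia, the Tubb4b interval spanned 0 (0.39, −0.36 to 1.21). In the same cells Tuba1a had 352 CPM in the knockout-labelled library and 1026 CPM in WT (−1.54, −1.86 to −1.23). Tubb2b (−1.76, −2.22 to −1.31) and Tubb3 (−1.84, −2.56 to −1.14) were also past 1.5-fold lower there in the knockout-labelled library. In all microglia GABAergic markers summed to 20.6 CPM in the knockout-labelled library and 7.64 CPM in WT, choroid plexus or ependymal markers to 60.7 and 16.99 CPM, and Cyfip2 stood at 45.7 and 2.55 CPM. Their part in the Tubb4b ratio was not tested.

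The other genes of the microtubule system were taken from 7 lists. Between the libraries no gene of any list reached 1.5-fold in the 3 families or over all cells. Of the microtubule-binding proteins, 5 of 28 measured genes had an interval above 0 and 8 below in excitatory neurons, 8 and 11 of 28 in GABAergic neurons, and 11 and 3 of 25 in progenitors. Of all measured genes, 14.5% lay above and 21.6% below 0 in excitatory neurons, 11.3% and 14.9% in GABAergic neurons, and 10.1% and 19.9% in progenitors. Their median ratio was −0.01, −0.02 and 0.04 in these families, beside medians over all measured genes of −0.01, −0.01 and −0.03. Stmn2, which sequesters tubulin dimers in neurons, had 301 CPM in the knockout-labelled library and 205 CPM in WT in progenitors (0.56). Dpysl2, a tubulin-binding protein of growing axons, was lower in excitatory neurons, at 819 CPM in the knockout-labelled library and 899 CPM in WT (−0.13), and Map1a, a microtubule-associated protein, was higher (0.21). Dcx, the microtubule stabiliser of migrating neurons, had 719 CPM in knockout-labelled GABAergic neurons and 806 CPM in those of WT (−0.17), and Map9 had 120 and 102 CPM (0.23).

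Of the tubulin-folding list, 4 of 21 measured genes lay above and 4 below 0 in excitatory neurons, 2 and 2 of 20 in GABAergic neurons, and 2 and 1 of 20 in progenitors. The prefoldin subunit Pfdn2 was highest by its interval in excitatory neurons (0.09) and in progenitors (0.12), and the chaperonin subunits Cct4 (−0.07) and Cct2 (−0.05) lowest in the same families. In GABAergic neurons Tbcb, a cofactor that folds α-tubulin, was at 0.07 and Tbcel at −0.19. Among modifying enzymes, 3 of 12 lay above and 1 below 0 in excitatory neurons, 1 and 3 of 12 in GABAergic neurons, and 0 of 8 on either side in progenitors. Tpgs2, a subunit of the polyglutamylase complex, was the highest in excitatory (0.17) and GABAergic neurons (0.12). Sirt2, a tubulin deacetylase, was the lowest in excitatory neurons (−0.08) and Ttll1, the catalytic subunit of that polyglutamylase, in GABAergic neurons (−0.23).

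Of the γ-tubulin ring and augmin genes, 0 of 10 lay above 0 in either neuronal family, 2 lay below in excitatory and 1 in GABAergic neurons, and 1 of 16 lay on each side in progenitors. The augmin subunit Haus2 was the lowest in excitatory neurons (−0.20), and Mzt1 in GABAergic neurons (−0.13), while in progenitors Haus3 was at 0.16 and Mzt2 at −0.18. Of the severing enzymes, Katnal1 (0.12) and Spast (−0.11) marked the 2 sides in excitatory neurons and Katna1 (0.17) the upper side in progenitors. Of both autoregulation genes, Scaper was below 0 in GABAergic neurons (−0.09) and progenitors (−0.16). Of 11 other tubulin genes only 1 or 2 were measured in a family, and Tuba1c was below 0 in progenitors (−0.12).

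The lists also differed between cell types. In neurons over progenitors, 23 of 28 microtubule-binding genes were called higher in both libraries and 1, Ckap5, lower, where 21.8% of all measured genes were higher and 19.2% lower. Mapt, which encodes tau, had 1102 CPM in neurons and 68.9 CPM in progenitors of the knockout-labelled library (4.0), and 1125 and 55.2 CPM in those of WT (4.35). Stmn4 and Camsap3, which binds microtubule minus ends, followed it. Of the modifying enzymes, 7 of 13 were higher, led by Vash2, which removes the last tyrosine of α-tubulin (2.22 in the knockout-labelled library and 2.30 in WT), Agtpbp1, which trims glutamates from tubulin tails (1.90 and 2.03), and Ttll7, which adds them to β-tubulin (1.46 and 1.74). Of the γ-tubulin ring and augmin genes 0 of 16 were higher and 8 lower, with Nedd1, the factor that anchors γ-tubulin rings, at −2.64 in the knockout-labelled library and −2.76 in WT. None of 20 folding genes was called on either side. Of 5 severing genes Spast was higher and Katna1 and Fignl1 lower, and of both autoregulation genes Scaper was higher (1.62 and 1.47). Tubb4a had 162 CPM in neurons and 21.7 CPM in progenitors of the knockout-labelled library (2.90), and 167 and 20.3 CPM in those of WT (3.04). Tuba1c, another gene of the Tuba1 group, had 0.694 CPM in neurons and 73.5 CPM in progenitors of the knockout-labelled library (−6.73), and 0.715 and 79.9 CPM in those of WT (−6.80).

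Promoters are shown for a member higher in neurons and a member lower in neurons whose 250 bases before the start lie outside the annotated gene. RefSeq windows for GRCm38.p6 were matched for 6 of the 9 members. Both genes are on the minus strand, Tubb2a at chr13:34078009-34078258 and Tubb4b at chr2:25224703-25224952. Capitals mark the CCAAT box (CCAAT), the GC box (GGGCGG) and the TATA box (TATAAA), each searched on both strands.
Tubb2a promoter: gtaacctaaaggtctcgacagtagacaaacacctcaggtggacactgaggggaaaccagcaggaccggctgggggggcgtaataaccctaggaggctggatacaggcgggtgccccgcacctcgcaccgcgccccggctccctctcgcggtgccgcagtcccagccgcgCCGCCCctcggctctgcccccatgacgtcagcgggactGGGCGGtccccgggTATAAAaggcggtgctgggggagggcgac
Tubb4b promoter: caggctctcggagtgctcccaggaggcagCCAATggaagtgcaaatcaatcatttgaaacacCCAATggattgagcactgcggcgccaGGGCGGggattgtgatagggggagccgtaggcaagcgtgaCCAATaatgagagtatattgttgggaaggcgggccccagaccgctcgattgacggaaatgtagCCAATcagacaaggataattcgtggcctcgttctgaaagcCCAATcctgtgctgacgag
The Tubb4b window holds CCAAT 5 times, a count that 0.213% of 32851 promoter windows reach, while 33.8% hold at least 1. The Tubb2a window holds no CCAAT, but has TATAAA, found in 12.4% of windows. It has GGGCGG or its complement at 2 places, where 32.7% of windows hold at least 1. Matches are letters in a window and not evidence of a bound factor.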

How the data were processed

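The deposited counts are whole-number UMI counts per gene and droplet barcode for all barcodes, made by the authors using version 4 of Cell Ranger (per the file headers) and the mm10 build (named in the submitters' processing notes). According to the labels' protocols, papain was used to dissociate forebrains, 2 of which were pooled for each genotype. No label or header states the gene annotation, the end of the transcript that was tagged or the handling of reads that match several genes. The libraries held 150828048 (knockout-labelled) and 123978461 (WT) UMIs.

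Cells (12855 and 9086) were barcodes with 1000 UMIs or more, 500 genes or more and no more than 10% mitochondrial UMIs, and the highest Scrublet scores were left out at 0.8% per 1000 cells, which removed 1322 (10.3%) and 660 (7.26%). Cells were clustered with scanpy 1.11.5 (2000 variable genes without the genes of this report, 30 principal components, 15 neighbours, Leiden resolution 1). Clusters were named from fixed markers by a rule set after the clusters were seen. It asked for a mean scaled marker level of at least 0.75, at least 3 markers 1.5-fold higher, a UMI of 3 markers in 50% of cells, and no other family with more markers among the 10 leading genes.

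UMIs were summed per library and class. Cell classes were compared within a library, and libraries within a class. The members and lists were chosen with earlier results of these data known. All 9 members are named, and of each list the 3 genes with the largest ratio each way among those past 1.5-fold or, with none, the 1 with the largest interval-bounded ratio each way. For the likeness of patterns, log2(CPM + 10) over 24 clusters was correlated among 3496 genes with a mean of at least 50 CPM. The call rule was tested on simulated data. Alternatives were the doublet, mitochondrial and UMI filters, scaling, free RNA, cluster weights, resolution, clustering genes and the low-count filter, with a depth range and the removal of cluster 4 added after seeing the data. Some items are not reported here.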

Additional observations from a re-analysis of the deposited data

Results flagged for a closer look

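For 4 genes the library labelled Cyfip2 knockout lay above WT in one cell family and below it in another, with intervals of counting error on opposite sides of 0. In each case the difference between the families was not tested. Within cells of 5000 to 15000 UMIs, a range chosen after seeing the data, the ratios in excitatory neurons were 0.017 for Tuba1a, 0.031 for Tubb3, 0.058 for Tubb4b and 0.039 for Tubb5, so that none of the 4 lay below 0 there. The log2 ratio of Tuba1a was 0.071 in progenitors and −0.14 in excitatory neurons. For Tubb3 it was 0.32 in progenitors and −0.021 in excitatory neurons. For Tubb4b it was 0.19 in GABAergic neurons and −0.076 in excitatory neurons. For Tubb5 it was 0.094 in progenitors and −0.040 in excitatory neurons. With equal weight for each cluster, the values in progenitors were −0.01 for Tuba1a, 0.12 for Tubb3 and −0.02 for Tubb5.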

How the results depend on the processing

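The counts of members called between the libraries over all cells and in the 3 families, and the counts higher and lower in neurons than in progenitors, kept their values under all alternatives with 1 exception. Calls in vascular cells and microglia were recomputed for the range of 5000 to 15000 UMIs alone, and those in single clusters under none. In that range the 5 vascular ratios stayed past 1.5-fold with intervals above 0, and the Tubb4b call in microglia was lost (0.39, −0.36 to 1.21). Tuba1a (−1.54), Tubb2b (−1.76) and Tubb3 (−1.84) in microglia were past 1.5-fold lower in the knockout-labelled library there, with intervals below 0. Calls between single cell classes were recomputed for this range alone, and it ended several of them, such as Tuba1a in deep-layer over migrating neurons (0.13 in the knockout-labelled library and 0.091 in WT). With no filter on low counts, 1 member was called over all cells in place of 0, namely Tubb6 at 3.00 CPM in the knockout-labelled library and 1.32 CPM in WT. Of the 36 ratios between the libraries (9 members over all cells and in 3 families), 16 kept their sign under all of 13 alternatives and 20 changed it under at least 1, and 112 of 468 values moved by more than counting error. No paired analysis was possible because each group has 1 library. Leaving out a replicate was not possible for the same reason. Single libraries limit what can be read from these ratios: embryo, dissociation and library preparation cannot be told apart from genotype, and cell depth differed between the libraries.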

Other observations

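For each member the 3 genes with the most similar pattern over 24 clusters were noted, with the lower of the correlations in the library labelled Cyfip2 knockout and in WT deciding the rank. They describe these clusters only, which share depth and free RNA within a library. Tuba1a was most like Stmn3 (0.96 in the knockout-labelled library and 0.96 in WT), Tubb2b and Eid1. Tubb2b was most like Rtn1 (0.97 in both), Eid1 and Ncs1, and Tubb3 like Stmn3 (0.96 in both), Crmp1 and Nsg1. Tubb2a had as its nearest genes Gpr27 (0.93 in the knockout-labelled library and 0.92 in WT), Sptbn1 and Ina. Tuba1b was most like Cdca8 (0.86 and 0.87), Selenoh and Cdk1, the last a kinase of mitotic entry. Tubb4b had Oxct1 (0.86 and 0.82), Arl6ip1 and Nudc, and Tubb5 had Stmn1 (0.92 and 0.89), Jpt1 and Dda1. Tubb6 was nearest to Tmbim6 (0.94 and 0.93), Pfn1 and Gdi2, and Tubg1 to Lsm8 (0.92 and 0.91), Magoh and Dnajc8. The 24 clusters leave out the vascular and meningeal clusters, where Tubb6 was highest. Among the members themselves, Tuba1b and Tubb4b had a correlation of 0.80 in the knockout-labelled library and 0.79 in WT.

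Free RNA was rich in neuronal tubulins. In barcodes under 100 UMIs, Tuba1a had 9014 CPM in the knockout-labelled library and 9800 CPM in WT, and Tubb3 had 2225 and 2292 CPM. Microglia held these genes at small fractions of that level, Tuba1a at 0.048 and 0.037 times and Tubb3 at 0.047 and 0.037 times, whereas Tubb5 stood at 0.204 and 0.186 times and Tuba1b at 1.16 and 0.917 times. The ratio of the last 2 to free RNA in microglia is thus above that of Tuba1a and Tubb3 in both libraries.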
